A study of Mus musculus with 22 samples.

Results

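The genes of fatty acid synthesis and fatty acid desaturation were followed across 22 RNA-seq libraries of male mouse embryonic stem cells (ESCs). The 10 genes are Scd1, Scd2, Fads1, Fads2, Acly, Acss2, Acaca, Fasn, Elovl6 and Srebf1, of 43672 genes in the count table. They were chosen on the measured levels of Scd1 and Scd2, whose strong fall under 4OHT had been seen in the first 8 libraries described here, so their values in those 8 libraries are given as a description without a test. All 10 passed the filter on low counts in every comparison.

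The ESCs came from the inner cell mass of strain 129 embryos and grew without feeder cells in serum and LIF, per the labels. The first set holds 4 libraries of Ythdc1 conditional knockout (cKO) cells under 4-hydroxytamoxifen (4OHT), a drug commonly used to activate an inducible Cre, and 4 under DMSO, its usual solvent. The labels give 2 ESC lines for this set, but the table's columns do not carry them. The second set, called the Dux set here, holds 10 libraries that all carry the Ythdc1 cKO: Dux-KO cells under 4OHT (2) or DMSO (2), Dux-Het cells under 4OHT (2) or DMSO (2), and cells with no Dux label under 4OHT (1) or DMSO (1). The third set holds Mettl3 KO (2) and WT (2) cells. YTHDC1 is a nuclear reader of N6-methyladenosine (m6A) in RNA, METTL3 is the catalytic subunit of the m6A writer, and DUX is a transcription factor of the early embryo. The sources used here do not give the driver of Cre, the time under 4OHT or whether a KO line is 1 clone. No library holds cells without the Ythdc1 cKO under 4OHT, so the drug and the loss of Ythdc1 cannot be told apart.

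Mammalian cells build fatty acids from acetyl-CoA. ATP citrate lyase (Acly) and the acetyl-CoA synthetase ACSS2 supply it in the cytosol, acetyl-CoA carboxylase (Acaca) turns it into malonyl-CoA, and fatty acid synthase (Fasn) joins these units into palmitate, which ELOVL6 lengthens to stearate. The stearoyl-CoA desaturases SCD1 and SCD2 then put the first double bond into saturated chains, while FADS1 and FADS2 desaturate polyunsaturated chains taken from the diet or the medium. Srebf1 encodes the membrane-bound sterol regulatory element binding protein that, once cut free, drives transcription of most of these enzymes. SCD2 is known as the main isoform of the mouse embryo and brain and SCD1 as that of adult liver and fat.

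Scd1 and Scd2 differ most among the 10 genes under 4OHT and are close copies of each other, so their sequences are shown first. Scd1 lies at chr19:44394455-44407879 on the minus strand and Scd2 at chr19:44293674-44306864 on the plus strand (GRCm38, GENCODE vM21), with 87591 bases between them. Over the coding sequence, 962 of 1065 aligned bases are the same (90.3%), and the longest identical run has 147 bases, just under the read length of 150 bases. The sources used here do not give how the authors counted reads that match both genes. The 90 coding bases in which the pair differs most hold 30 differing bases, in capitals below, from base 75 of the Scd1 and base 84 of the Scd2 coding sequence.
Scd1: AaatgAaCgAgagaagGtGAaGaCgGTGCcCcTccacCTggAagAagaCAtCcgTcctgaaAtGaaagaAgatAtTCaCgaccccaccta
Scd2: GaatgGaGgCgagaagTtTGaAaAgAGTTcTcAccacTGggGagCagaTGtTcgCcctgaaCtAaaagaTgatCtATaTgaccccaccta

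Because the 10 genes moved together in most comparisons below, the bases just before their start sites were searched for letters bound by known lipogenic factors. RefSeq (GRCm38.p6) gave 9 start sites for 7 of the genes, 3 of them for Srebf1 and none matched for Scd1, Scd2 and Fads1, and 250 bases before each were read. The bases read for Acaca, chr11:84195188-84195437, lie inside the gene, which starts at base 84129672, and some of those read for Srebf1 also lie inside it. In GENCODE vM21 Fads2 starts at base 10101746 on the minus strand, so nearly all of the bases read for it lie inside the gene. Acss2 starts there at base 155517948, so part of the bases read for it lie inside the gene. The same holds for some of those read for Elovl6. The sterol regulatory element TCACNCCAC was in 0 of the 9, against 1.05% of 32851 mouse promoters of that length, and the E-box CACGTG in 0 of 9, against 6.02%. With 9 start sites, 0 matches does not set these promoters apart from shares that low. The NF-Y box CCAAT was in 4 of 9, against 33.8%, and the GC box GGGCGG in 5 of 9, against 32.7%. Both strands were searched, overlapping matches were counted, and a match is a string of letters, not a measured binding site. The Fasn promoter, chr11:120824548-120824797 on the minus strand, holds 3 CCAAT strings, which start 90, 62 and 59 bases before the start site. The bases read for Fads2, chr19:10101504-10101753 on the minus strand, hold 1 GGGCGG string, which lies inside the gene. Those read for Acss2, chr2:155517793-155518042 on the plus strand, hold 4 GGGCGG strings and 1 CCAAT string. Of these, the strings 73 and 37 bases before the RefSeq start site lie inside the gene. They are printed 5′ to 3′ with the matched letters, on either strand, in capitals, for a desaturase, the synthase and an acetyl-CoA supply gene.
Fads2: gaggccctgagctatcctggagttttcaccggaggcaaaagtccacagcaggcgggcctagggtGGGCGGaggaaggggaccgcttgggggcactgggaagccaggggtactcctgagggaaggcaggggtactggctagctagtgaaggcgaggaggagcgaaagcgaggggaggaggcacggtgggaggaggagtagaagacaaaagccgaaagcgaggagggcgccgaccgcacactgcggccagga
Fasn: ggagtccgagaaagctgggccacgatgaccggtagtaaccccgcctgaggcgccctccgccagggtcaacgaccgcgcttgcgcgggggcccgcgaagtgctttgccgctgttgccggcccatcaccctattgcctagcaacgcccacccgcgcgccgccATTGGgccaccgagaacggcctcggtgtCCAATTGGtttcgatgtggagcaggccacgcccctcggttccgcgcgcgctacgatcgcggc
Acss2: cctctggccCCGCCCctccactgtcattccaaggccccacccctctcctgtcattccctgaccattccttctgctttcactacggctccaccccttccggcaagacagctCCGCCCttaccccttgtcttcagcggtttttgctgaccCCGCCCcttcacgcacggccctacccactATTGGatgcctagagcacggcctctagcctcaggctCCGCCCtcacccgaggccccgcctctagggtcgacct

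Total counts ran from 24.96 to 54.14 M per library. Ythdc1 itself was at 48.98 to 62.78 CPM (counts scaled to 1 M per library and for composition) under 4OHT and 70.82 to 80.16 CPM under DMSO in the first set (log2 fold change −0.41 ± 0.08 SE, edgeR adjusted p = 0.00064), and its difference in the Dux set did not pass the test (−0.21 ± 0.12 SE, adjusted p = 0.20). Mettl3 had 14.52 and 28.42 CPM in the libraries labelled Mettl3 KO and 28.98 and 29.91 CPM in WT (−0.44 ± 0.24 SE, adjusted p = 0.21), so transcript counts do not show a clear loss in both KO libraries. The Dux gene, Duxf3 in the table, had 0.01988 and 0.0902 CPM in Dux-KO and 0.927 to 1.54 CPM in Dux-Het cells under 4OHT (adjusted p = 0.019). The 8 ESC markers were all detected, with a summed level of 1127 to 2476 CPM. Of the 8 adipocyte markers, Adipoq, Fabp4 and Lep were at 0 in all 8 libraries of the first set and above 0 in some libraries of the other sets. Lpl was at 1.62 to 3.695 CPM under 4OHT and 10.2 to 13.7 CPM under DMSO in the first set. The 8 adipocyte markers summed to 1.74 to 20.57 CPM over all 22 libraries, and the 6 hepatocyte markers to 0.527 CPM or less in every library.

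Under 4OHT in the first set every one of the 10 transcripts was lower, and the log2 fold changes of the desaturases were the largest in size. Scd1 had 6.73, 11, 5.04 and 4.85 CPM under 4OHT and 100.7, 160.9, 168.6 and 160.6 CPM under DMSO, a log2 fold change of −4.38 (20.9-fold lower). DMSO library 1 was the lowest of its group, and the groups were far from overlapping. Scd2 had 69.36, 96.03, 62.19 and 63.13 CPM under 4OHT and 571.0, 635.5, 650.6 and 661.8 CPM under DMSO, a log2 fold change of −3.09 (8.54-fold lower). 4OHT library 2 was the highest of its group for both genes. Fads2, which makes the first desaturation of polyunsaturated chains, had 12.88, 17.42, 18.58 and 16.23 CPM under 4OHT and 76.79, 95.55, 96.73 and 98.32 CPM under DMSO (−2.48). Fads1, which acts after FADS2 and a round of elongation, had 19.13, 24.66, 21.62 and 22.04 CPM under 4OHT and 51.70, 58.22, 59.45 and 61.37 CPM under DMSO (−1.38).

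The synthesis enzymes differed less. Fasn was at 276.7 to 334.6 CPM under 4OHT and 652.4 to 738.8 CPM under DMSO (−1.21), and Acaca at 81.05 to 99.86 CPM under 4OHT and 178.3 to 193.8 CPM under DMSO (−1.06). Of the genes that supply acetyl-CoA, Acly was at 219.4 to 223.8 CPM under 4OHT and 370.7 to 413.3 CPM under DMSO (−0.80), and Acss2 at 6.44 to 9.17 CPM under 4OHT and 9.71 to 14.72 CPM under DMSO (−0.62). Srebf1 was at 36.61 to 39.92 CPM under 4OHT and 56.60 to 69.04 CPM under DMSO (−0.69). Elovl6 stood closest to its DMSO level, with 89.49 to 120.5 CPM under 4OHT and 124.6 to 141.4 CPM under DMSO (−0.28). The 4OHT libraries lay below the DMSO libraries without overlap for all 10 genes, beside 20.7% of all entries. The median log2 fold change of the 10 was −1.14, beside 0.02 over all 24385 entries tested, of which 21.4% were lower and 23.7% higher at an adjusted p of 0.05. Nothing is read from these figures about the 10 genes, since this comparison chose them. ESC markers summed to 1127 to 1396 CPM under 4OHT and 1670 to 1907 CPM under DMSO in this set, with 4 of the 8 lower, and their part in these values was not tested. In bulk RNA, fewer cells with a transcript and less of it per cell cannot be told apart.

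**Figure D1:**
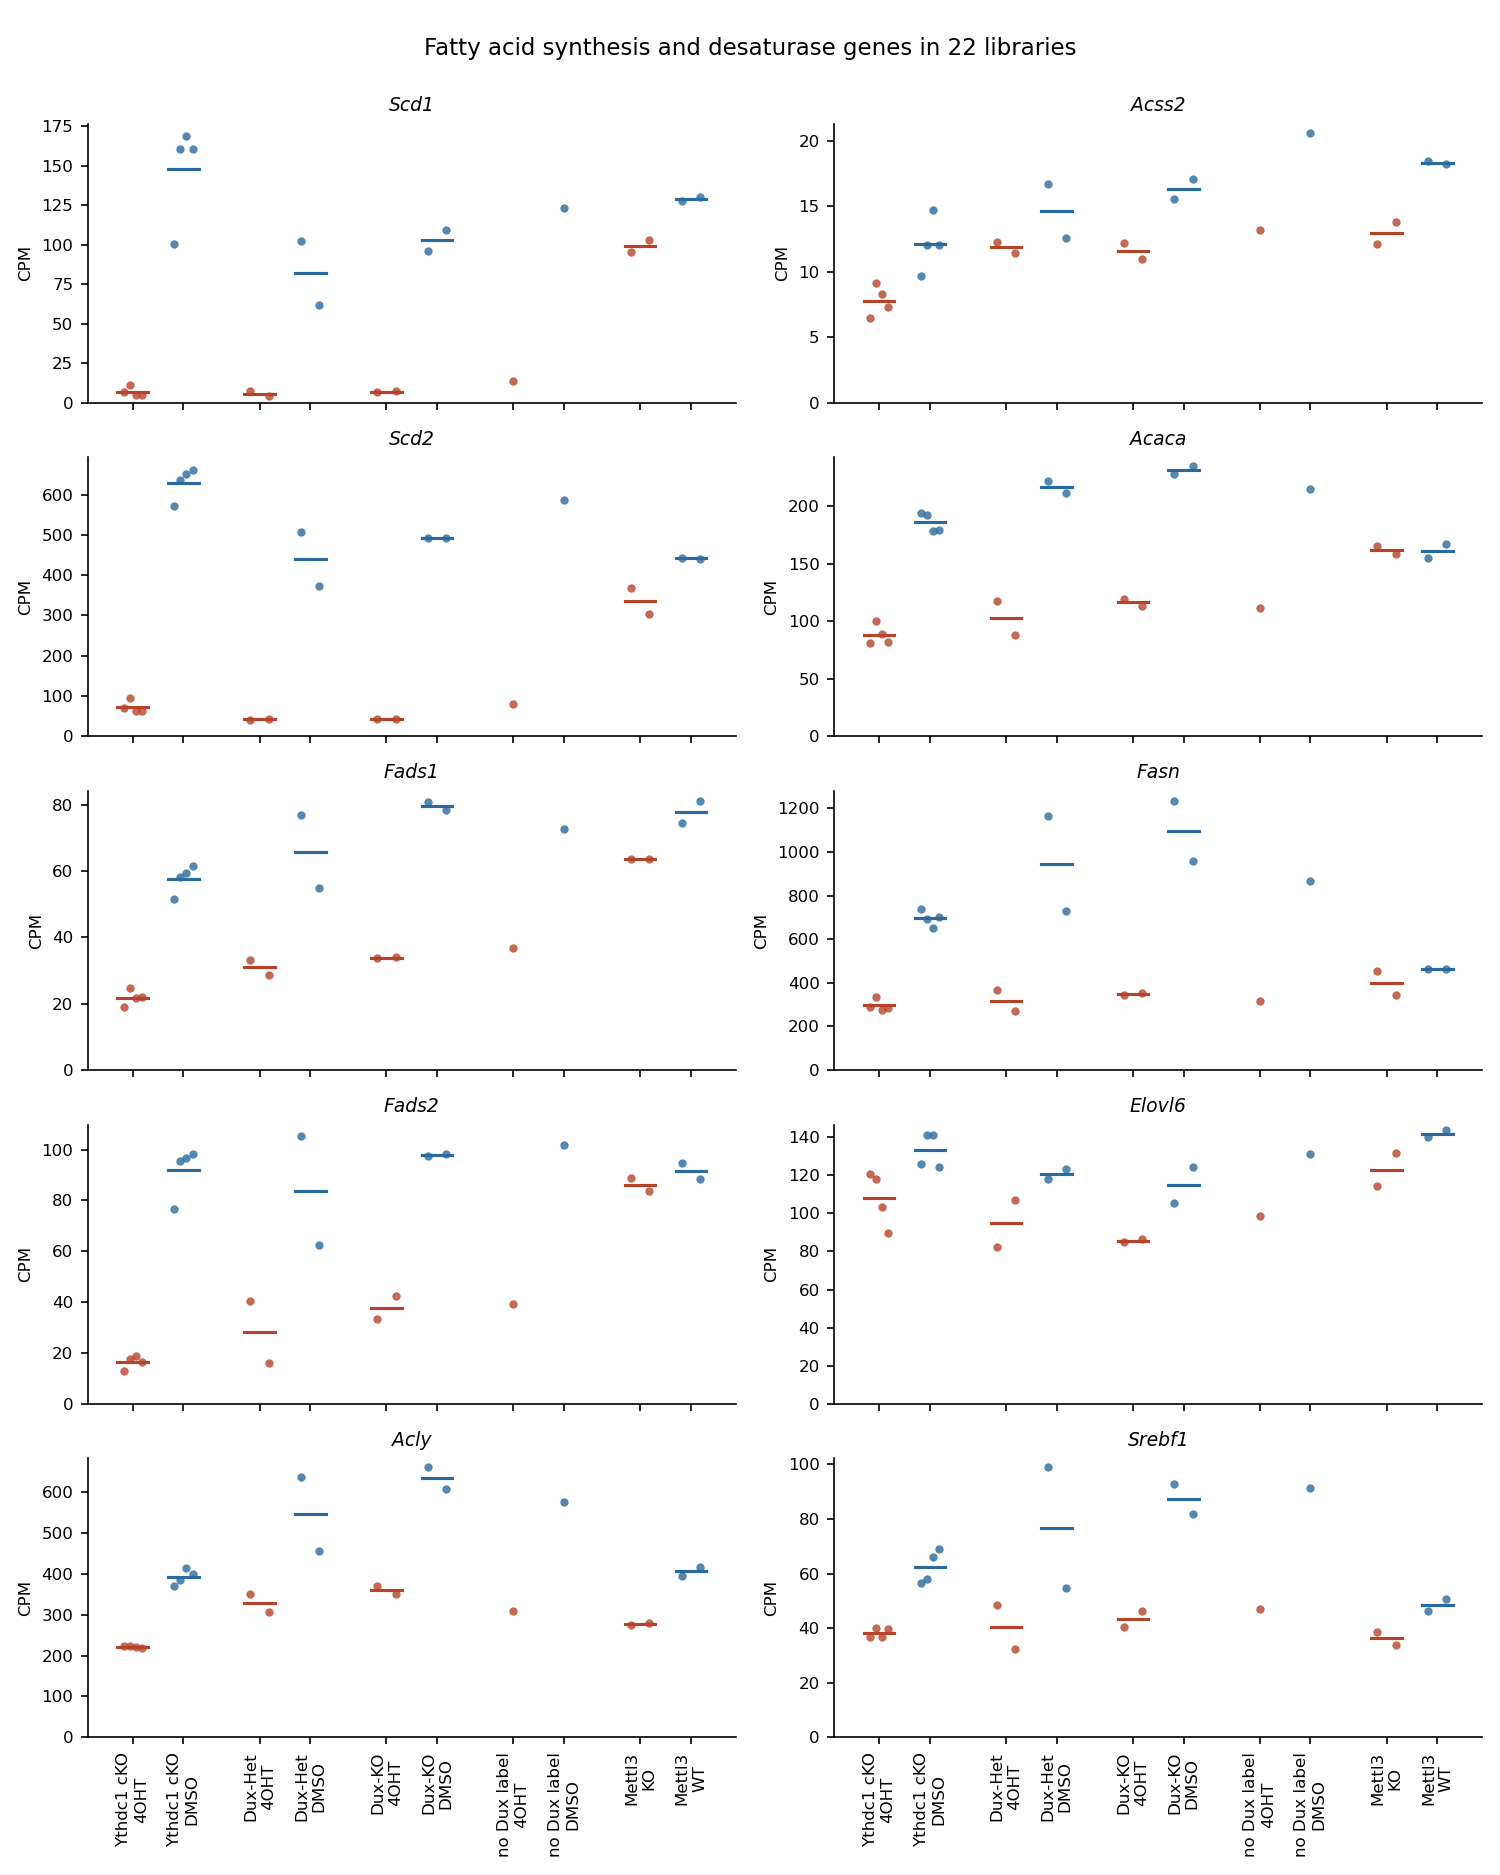
Level of each of the 10 genes in each of the 22 libraries, in CPM (linear axes from 0). Points are libraries, bars are group means, red is 4OHT or KO and blue is DMSO or WT. Scd1 and Scd2 lie near the bottom of their axes in every 4OHT group, while in the Mettl3 KO libraries both lie much closer to their WT level.

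The Dux set repeats the 4OHT treatment in 10 other libraries. Earlier results of all 22 libraries were known when the 10 genes were chosen, so its tests and those of the Mettl3 set are not independent support for the choice. With genotype as a term, all 10 genes fell under 4OHT, beside 16.2% of the 29322 entries tested that were lower and 20.2% that were higher (edgeR quasi-likelihood test, Benjamini-Hochberg adjusted p under 0.05). The median log2 fold change of the 10 genes was −1.04, beside 0.05 over all entries. The order of sizes was close to that of the first set, with Scd1 and Scd2 ahead of the rest. P-values here measure only the spread between these libraries, since the labels do not say that replicates came from separate cultures.

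Scd1 had 7.32 and 4.17 CPM in Dux-Het, 6.56 and 7.32 CPM in Dux-KO and 13.95 CPM in unlabelled cells under 4OHT. Under DMSO it had 102.6 and 62.14 CPM in Dux-Het, 96.05 and 109.6 CPM in Dux-KO and 123.0 CPM in unlabelled cells. The fall was 12.9-fold (log2 fold change −3.69 ± 0.19 SE, adjusted p = 2.2e-08), and the highest 4OHT library lay well under the lowest DMSO library. Scd2 had 41.17 and 43.90 CPM in Dux-Het, 43.10 and 44.32 CPM in Dux-KO and 79.88 CPM in unlabelled cells under 4OHT. Under DMSO it had 507.7 and 373.4 CPM in Dux-Het, 491.5 and 491.7 CPM in Dux-KO and 587.8 CPM in unlabelled cells. Scd2 fell 9.81-fold (−3.29 ± 0.11 SE, adjusted p = 1.4e-09). The unlabelled 4OHT library was the highest of the 5 for both stearoyl-CoA desaturases.

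Fads2 fell by 1.42 on the log2 scale (SE 0.21, adjusted p = 0.00017), with 16.06 to 42.23 CPM under 4OHT and 62.33 to 105.2 CPM under DMSO. Its lowest value in both treatments came from the Dux-Het libraries numbered 2. Fads1 fell by 1.10 (SE 0.10, adjusted p = 3.4e-06), with 28.65 to 36.71 CPM under 4OHT and 54.89 to 80.78 CPM under DMSO. Fasn fell by 1.55 (SE 0.13, adjusted p = 1.9e-06), with 271.4 to 365.7 CPM under 4OHT and 730.6 to 1232 CPM under DMSO. By value its fall was larger than those of Fads1 and Fads2 here and smaller than both in the first set. Acaca fell by 0.99 (SE 0.08, adjusted p = 2.5e-06), with 88.54 to 119.7 CPM under 4OHT and 211.6 to 235.0 CPM under DMSO. Acly fell by 0.77 (SE 0.09, adjusted p = 4.0e-05), with 306.8 to 369.5 CPM under 4OHT and 455.6 to 660.0 CPM under DMSO. Srebf1 fell by 0.94 (SE 0.15, adjusted p = 0.00031), with 32.54 to 48.33 CPM under 4OHT and 54.68 to 98.91 CPM under DMSO. For these 6 genes too the 4OHT libraries all lay below the DMSO libraries, which makes 8 of the 10 genes with Scd1 and Scd2, beside 11.5% of all entries.

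The smallest falls were those of Acss2 and Elovl6, the only 2 genes of the 10 whose treatments overlapped. Acss2 had 10.97 to 13.23 CPM under 4OHT and 12.58 to 20.63 CPM under DMSO (−0.42 ± 0.11 SE, adjusted p = 0.0082). Its call was lost when the effect was taken as the mean of the Dux-Het and Dux-KO effects (−0.37, adjusted p = 0.064). Elovl6 had 82.48 to 107.0 CPM under 4OHT and 105.6 to 131.1 CPM under DMSO (−0.36 ± 0.08 SE, adjusted p = 0.0043). Among the DMSO libraries of the Dux set, Dux-Het library 2 was the lowest for 9 of the 10 genes, all but Elovl6. ESC markers moved with the treatment as well: their summed level was 1426 to 1556 CPM under 4OHT and 2089 to 2476 CPM under DMSO in Dux-KO cells, 1421 to 1663 CPM under 4OHT and 2217 to 2279 CPM under DMSO in Dux-Het cells, and 5 of the 8 were lower in the Dux set. Trophectoderm markers summed to 50.65 to 53.66 CPM under 4OHT and 109.9 to 153.9 CPM under DMSO in Dux-KO cells. In Dux-Het cells they summed to 47.95 to 53.06 CPM under 4OHT and 56.28 to 125 CPM under DMSO, and 3 of 7 were lower in the Dux set, beside 16.2% of all entries. In the first set they summed to 254.5 to 549.4 CPM under 4OHT and 295.5 to 483.5 CPM under DMSO, with 1 lower and 1 higher. In the Mettl3 set 2 of 6 tested were higher and 0 lower, beside 16.4% and 14.9% of all entries. Fibroblast markers summed to 33.62 to 37.65 CPM under 4OHT and 58.20 to 74.98 CPM under DMSO in Dux-KO cells. In Dux-Het cells they summed to 30.12 to 39.16 CPM under 4OHT and 19.56 to 67.22 CPM under DMSO, and 1 of 6 tested was lower in the Dux set, beside the same 16.2%. The part of these markers in the results was not tested.

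**Figure D2:**
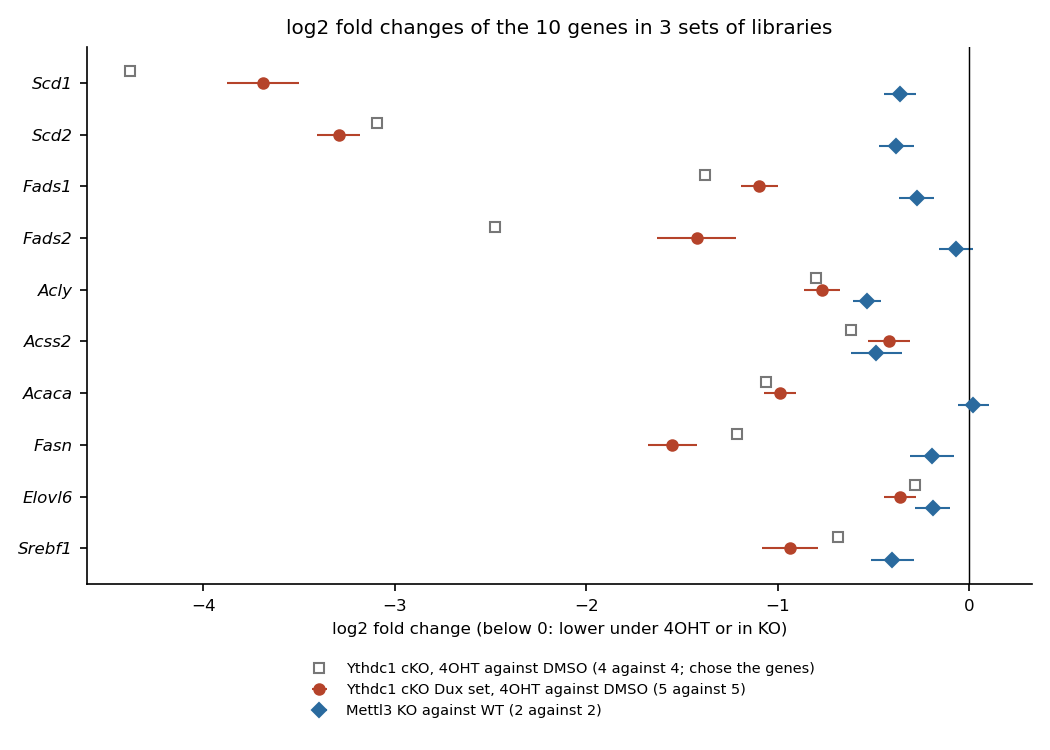
log2 fold change (x axis) of each of the 10 genes in the Ythdc1 cKO set (open squares, the comparison that chose the genes, without error bars), the Dux set pooled over genotypes (red circles) and the Mettl3 set (blue diamonds); lines are ± 1 SE. In both 4OHT sets Scd1 and Scd2 lie beyond −3, while all Mettl3 KO values lie between −0.54 and 0.02.

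Taken by genotype, the 4OHT effect passed the test for 8 genes in Dux-KO cells and 7 in Dux-Het cells; both comparisons use libraries of the pooled one. The background was 4.36% of entries lower and 5.5% higher in Dux-KO cells, and 4.34% lower and 4.99% higher in Dux-Het cells. Scd1 fell by 3.85 on the log2 scale in Dux-KO cells (SE 0.29, adjusted p = 4.8e-05) and by 3.82 in Dux-Het cells (SE 0.30, adjusted p = 5.1e-05). Scd2 fell by 3.45 in Dux-KO cells (SE 0.17, adjusted p = 6.1e-06) and by 3.35 in Dux-Het cells (SE 0.17, adjusted p = 7.7e-06). Fasn, Acaca, Acly, Fads1 and Fads2 also passed in both genotypes. Srebf1 fell in Dux-KO cells (−0.97, adjusted p = 0.040) and narrowly missed the threshold in Dux-Het cells (−0.90, adjusted p = 0.053). Elovl6 and Acss2 passed in neither, with log2 fold changes of −0.38 and −0.45 in Dux-KO cells and −0.33 and −0.29 in Dux-Het cells. Within each genotype the 4OHT libraries lay below the DMSO libraries for all 10 genes, as they did for 29% of all entries in Dux-KO cells and 25.7% in Dux-Het cells. The count of 8 in Dux-KO cells rests on few libraries: it was 4 or 3 without Dux-KO 4OHT library 1 or 2, and 5 without Dux-KO DMSO library 1. Entries called over the whole table dropped there too, to 423, 453 and 779, beside 2890 with all libraries.

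The difference between the genotypes was tested itself. The 4OHT effect in Dux-KO cells minus that in Dux-Het cells ran from −0.17 (Acss2) to 0.22 (Fads2) on the log2 scale, with SEs of 0.22 to 0.50 and a lowest unadjusted p of 0.545 (Acss2). For Scd1 it was −0.02 ± 0.38 SE and for Scd2 −0.10 ± 0.22 SE. None of the 10 genes and 0% of all entries passed this test in edgeR, in which 481 entries had an unadjusted p under 0.05; DESeq2 called 2 entries and none of the 10 genes. At these errors a difference of 0.5 or less on the log2 scale was not detectable for most of the genes.

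Dux-KO and Dux-Het cells were also compared under each treatment. Under 4OHT the log2 fold changes of the 10 genes ran from −0.15 (Elovl6) to 0.42 (Fads2), and none passed, beside 0.276% of entries (81) in either direction. Under DMSO they ran from −0.09 (Elovl6) to 0.30 (Scd1), and none passed, beside 0.0341% of entries (10). No gene of the 10 had an unadjusted p under 0.05 in either comparison, where 873 entries did under 4OHT and 757 under DMSO, and DESeq2 called none of the 10. Acly and Fads1 did not overlap between the genotypes under 4OHT, nor Acaca and Fads1 under DMSO. With 2 libraries in each group, 32.2% of all entries did not overlap under 4OHT and 24.2% under DMSO, so 2 genes of 10 are no more than the background.

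The unlabelled pair has 1 library per treatment and no test. Its log2 ratios of 4OHT to DMSO, with 0.5 CPM added to both, were −3.10 for Scd1, −2.87 for Scd2, −1.45 for Fasn, −1.36 for Fads2 and −0.41 for Elovl6. All 10 ratios were below 0, and those for Scd1 and Scd2 were smaller in size than any of the 4 ratios between libraries of the same number in Dux-Het and Dux-KO cells.

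In the Mettl3 set the log2 fold changes of the 10 genes lay between −0.54 and 0.02. Of the 10, 6 were lower in the libraries labelled Mettl3 KO and none was higher, beside 14.9% of 23977 entries lower and 16.4% higher. The median log2 fold change was −0.32, beside 0.02 over all entries. The largest fall was that of Acly, not of a desaturase. Acly had 273.8 and 279.9 CPM in KO and 395.1 and 415.9 CPM in WT libraries (−0.54 ± 0.07 SE, adjusted p = 0.00061). Acss2, the other source of cytosolic acetyl-CoA, had 12.10 and 13.81 CPM in KO and 18.47 and 18.24 CPM in WT libraries (−0.49 ± 0.13 SE, adjusted p = 0.021). Both supply genes stood clear of their WT values.

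Scd1 had 95.6 and 102.8 CPM in KO and 127.6 and 130.1 CPM in WT libraries (−0.36 ± 0.08 SE, adjusted p = 0.0099). Scd2 had 367.3 and 304.1 CPM in KO and 443.3 and 441.1 CPM in WT libraries (−0.38 ± 0.09 SE, adjusted p = 0.012). Both desaturases were lower in each KO library than in either WT library. Srebf1 had 38.52 and 33.94 CPM in KO and 46.18 and 50.62 CPM in WT libraries (−0.40 ± 0.11 SE, adjusted p = 0.022). Fads1 had 63.54 and 63.68 CPM in KO and 74.54 and 81.07 CPM in WT libraries (−0.28 ± 0.09 SE, adjusted p = 0.047), a call that DESeq2 did not make (adjusted p = 0.071).

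The other 4 genes did not pass the test. Fasn had 455.2 and 344.7 CPM in KO and 462.2 and 463.3 CPM in WT libraries (−0.20, adjusted p = 0.23), with KO library 2 well under the other 3. Elovl6 had 114.3 and 131.6 CPM in KO and 140.2 and 143.6 CPM in WT libraries (−0.19, adjusted p = 0.15). Fads2 had 88.66 and 83.57 CPM in KO and 94.67 and 88.38 CPM in WT libraries (−0.07, adjusted p = 0.58), and Acaca had 165.2 and 158.3 CPM in KO and 155.1 and 167.1 CPM in WT libraries (0.02, adjusted p = 0.88). Fads2 and Acaca were the 2 genes whose groups overlapped; the other 8 were lower in both KO libraries than in either WT library, as were 33.7% of all entries. The 6 calls rest on both WT libraries: without WT library 1, or without WT library 2, none of the 10 genes passed, with the lone WT sample assumed to vary like the KO samples. Calls dropped over the whole table as well, to 351 entries without WT library 1 and 1928 without WT library 2, beside 7492 with both. Summed ESC markers were at 1200 and 1202 CPM in KO and 1577 and 1581 CPM in WT libraries, 4 of the 8 lower and 1 higher, and their part in the results was not tested.

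The 4OHT effect of the Dux set (the mean of the Dux-KO and Dux-Het effects) was tested against the Mettl3 KO effect in 1 fit. It was further below 0 for 6 of the 10 genes, beside 8.42% of 30612 entries lower and 7.15% higher. The difference on the log2 scale was −3.49 ± 0.29 SE for Scd1 (adjusted p = 6.8e-06) and −3.04 ± 0.18 SE for Scd2 (adjusted p = 7.5e-07). It was −1.40 for Fasn (adjusted p = 0.0020), −1.38 for Fads2 (adjusted p = 0.023), −1.04 for Acaca (adjusted p = 0.00078) and −0.87 for Fads1 (adjusted p = 0.0057). For the acetyl-CoA supply genes and the remaining pair the difference did not pass, at −0.23 for Acly (adjusted p = 0.43), 0.10 for Acss2 (adjusted p = 0.81), −0.18 for Elovl6 (adjusted p = 0.52) and −0.55 for Srebf1 (adjusted p = 0.22). The Dux and Mettl3 sets share no control libraries, and no Mettl3 library is labelled with 4OHT or DMSO. Set, drug and deletion therefore cannot be told apart in this test. The genes were chosen with results of both sets known, so the test is not independent support for the choice.

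Levels can be compared between genes only per length, here as CPM per kb of exons. Scd2 was the most abundant of the 10 transcripts under DMSO in the first set, at 115.3 ± 7.4 CPM per kb (SD, n = 4), ahead of Acly (74.3 ± 3.5) and Fasn (63.6 ± 3.2). Under 4OHT it was the fourth, at 13.3 ± 2.9, behind Acly (41.95 ± 0.43), Fasn (27.1 ± 2.4) and Elovl6 (16.8 ± 2.2). The ranges of 1 SD around Elovl6 and Scd2 overlapped there. Scd1 was the fourth under DMSO, at 30.2 ± 6.4, within 1 SD of Fads2 (27.9 ± 3.1), and the ninth under 4OHT, at 1.41 ± 0.58, with only Acss2 (0.767 ± 0.117) below it. In Dux-KO cells Scd2 was the fifth under 4OHT, at 8.00 ± 0.16, and the third under DMSO, at 89.96 ± 0.02 (SD, n = 2 each). In the Mettl3 set Scd2 led in both groups, at 61.4 ± 8.2 in KO and 80.9 ± 0.3 in WT libraries (SD, n = 2 each), followed by Acly and Fasn.

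**Figure D3:**
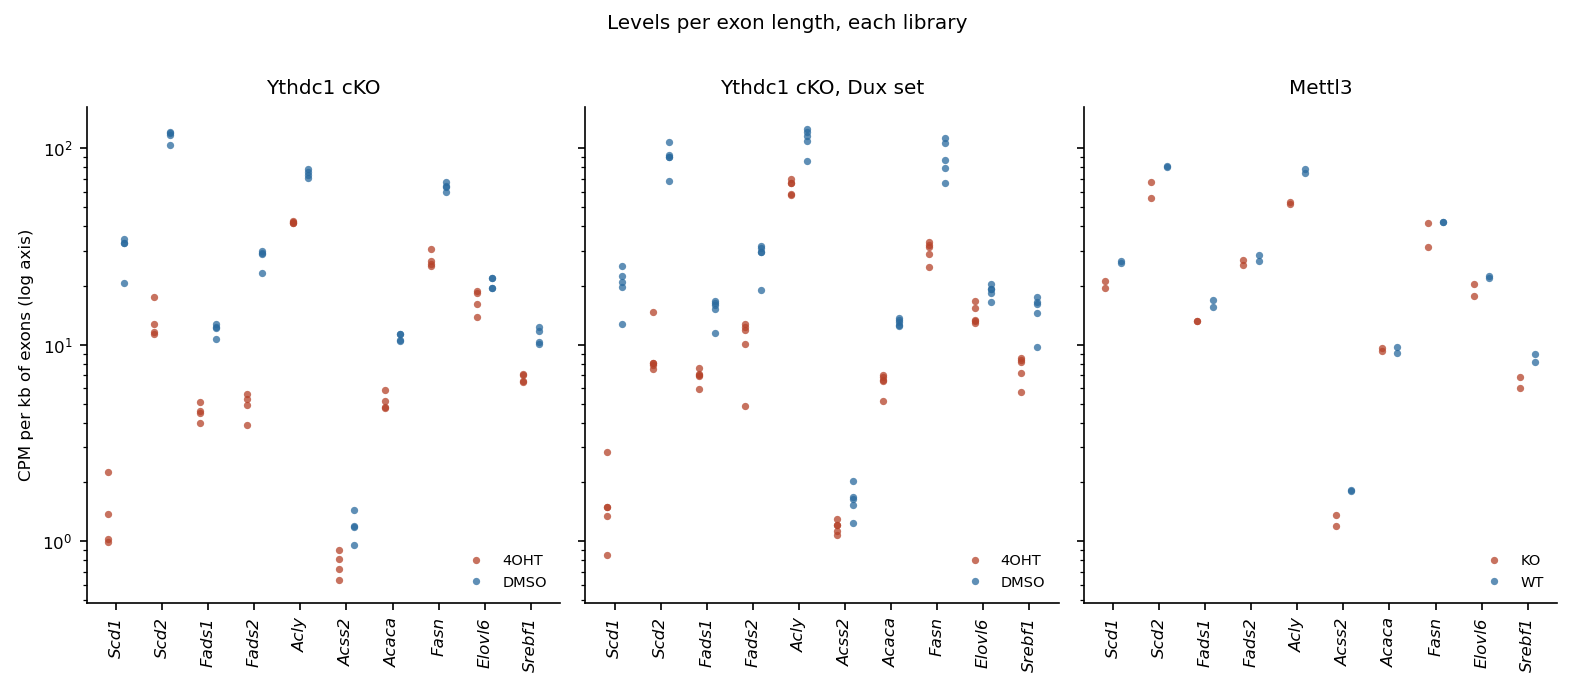
Level of the 10 genes in CPM per kb of exons on a log axis, for the Ythdc1 cKO set, the Dux set and the Mettl3 set; each point is 1 library, red for 4OHT or KO and blue for DMSO or WT. Scd2 is at the top under DMSO in the first panel and drops under Acly, Fasn and Elovl6 under 4OHT, while the order in the Mettl3 panel is led by Scd2 in both groups.

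Scd1 and Scd2 did not keep a fixed ratio. The CPM of Scd1 over that of Scd2 was 0.0768 to 0.1145 under 4OHT and 0.176 to 0.259 under DMSO in the first set. It was 0.152 to 0.165 under 4OHT and 0.195 to 0.223 under DMSO in Dux-KO cells, and 0.0951 to 0.178 under 4OHT and 0.166 to 0.202 under DMSO in Dux-Het cells, which overlap. In the Mettl3 set it was 0.260 to 0.338 in KO and 0.288 to 0.295 in WT libraries. Together the 10 genes took 0.0871% ± 0.0071 of all counts under 4OHT and 0.233% ± 0.011 under DMSO in the first set (SD, n = 4 each). They took 0.111% under 4OHT and 0.281% under DMSO in Dux-KO cells, 0.101% under 4OHT and 0.2498% under DMSO in Dux-Het cells, and 0.173% in Mettl3 KO and 0.206% in WT libraries (means, n = 2 each).

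The desaturase genes sit in 2 clusters on chromosome 19, whose other genes were looked at after the values of the 10 had been seen. In the Scd cluster, Scd3, a weakly expressed copy with a mean of 1.27 CPM over 22 libraries, was also lower under 4OHT (−2.20, adjusted p = 0.0013 in the first set; −2.09, adjusted p = 3.2e-05 in the Dux set) and in Mettl3 KO (−1.26, adjusted p = 0.014). Scd3 shares 91.5% of aligned coding bases with Scd1, so its low counts may hold reads of its neighbours, which was not tested. In the Fads cluster, Fads3, which lies 2655 bases from Fads2, did not pass in any set (−0.15, adjusted p = 0.51 in the first set; −0.04, adjusted p = 0.89 in the Dux set; −0.43, adjusted p = 0.35 in the Mettl3 set). Rab3il1, a regulator of vesicle traffic on the far side of Fads3, was higher in all 3 sets (1.48, 1.77 and 1.98, adjusted p = 2.0e-07, 2.2e-07 and 7.6e-05 in the first, Dux and Mettl3 sets). Fen1, a DNA replication nuclease next to Fads1, was lower under 4OHT (−0.35 in the first set and −0.55 in the Dux set) and higher in Mettl3 KO (0.81). Exon overlap with other genes touched at most 3.89% of the exon bases of any of the 10 genes for 1 overlapping gene, that of Acss2 with Gss.

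**Figure D4:**
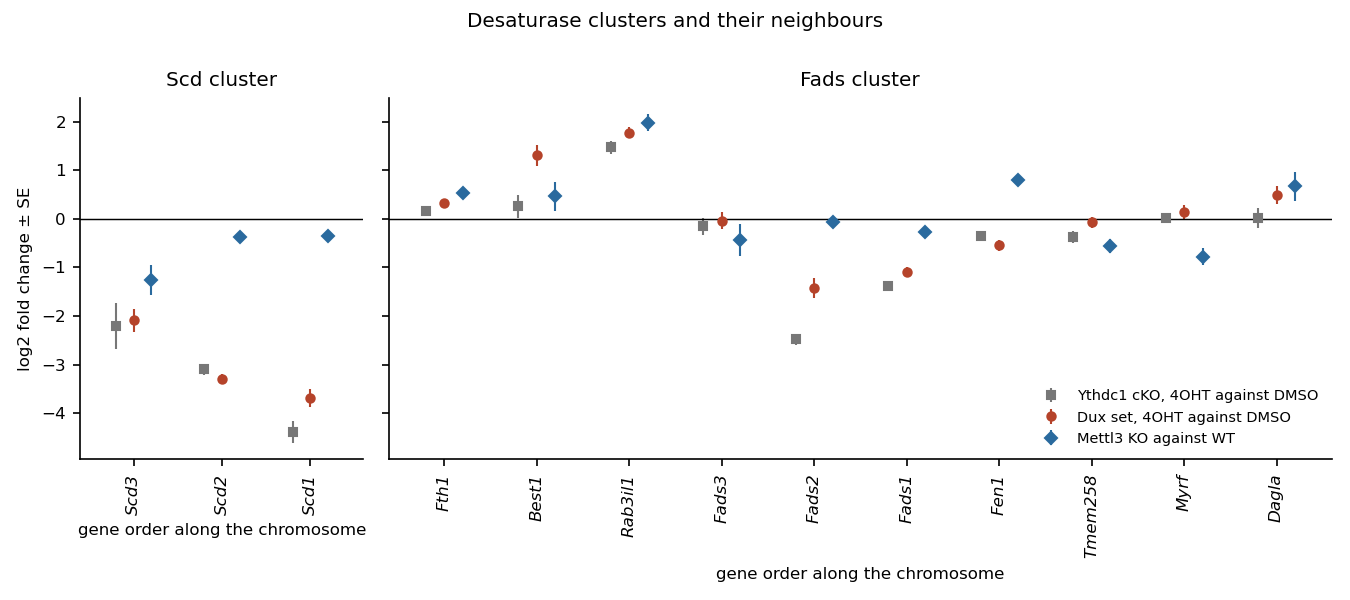
log2 fold change ± SE (y axis) of the Scd genes and of the Fads genes with their neighbours, in gene order along chromosome 19, for the Ythdc1 cKO set (grey squares), the Dux set (red circles) and the Mettl3 set (blue diamonds). Scd4, which lies between Scd2 and Scd1 at a mean under 1 CPM, is not drawn. Fads1 and Fads2 lie below 0 under 4OHT between Fads3 near 0 and genes on either side that lie above or just under 0.

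Related genes were counted in 8 lists, and each list is given by its counts beside the share of all entries called above. Of 23 sterol synthesis and uptake genes, 23 were lower under 4OHT in the first set (median −1.72) and 22 in the Dux set (median −1.60), with none higher. In the Mettl3 set 16 were lower and 3 higher (median −0.61). Msmo1, a methylsterol oxidase, was at 26.1 ± 2.2 CPM under 4OHT and 145.1 ± 21.6 CPM under DMSO in the first set (SD, n = 4 each; −2.46, adjusted p = 8.8e-11), and fell by 2.26 in the Dux set and by 1.33 in Mettl3 KO.

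Of 27 genes of SREBP processing and its transcription partners, 13 were lower and 5 higher under 4OHT in the first set, 8 lower and 3 higher in the Dux set, and 9 lower and 6 higher in Mettl3 KO. Insig1, which holds SREBPs in the endoplasmic reticulum and is itself an SREBP target, was at 16.1 ± 1.4 CPM under 4OHT and 90.4 ± 15.3 CPM under DMSO in the first set (SD, n = 4 each; −2.47, adjusted p = 2.8e-10) and fell by 2.08 in the Dux set (adjusted p = 6.6e-09). Srebf2, the sterol counterpart of Srebf1, fell by 1.11 in the first set and by 1.34 in the Dux set, more than Srebf1 in both by value, and by 0.38 in Mettl3 KO. Scap, the escort protein of SREBPs, went the other way and rose by 0.97 in the first set (adjusted p = 9.4e-08) and by 0.79 in the Dux set (adjusted p = 6.8e-06).

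Of 18 tested genes for the supply and control of fatty acid synthesis, 16 were lower under 4OHT in the first set (median −0.60) and 12 in the Dux set (median −0.54), with none higher. In Mettl3 KO 4 were lower and 6 higher (median 0.01). Slc25a1, the citrate carrier that feeds Acly, fell by 1.19 in the first set (adjusted p = 1.4e-07) and by 0.90 in the Dux set (adjusted p = 2.8e-06). Aacs, an acetoacetyl-CoA synthetase, fell by 1.52 in the first set and by 1.91 in the Dux set. Of 5 NADPH-forming enzymes on this list, a grouping made after the values were seen, Me1, Pgd, Idh2 and G6pdx rose in Mettl3 KO (1.00, adjusted p = 0.0014; 0.96, adjusted p = 0.00015; 0.86, adjusted p = 0.00016; 0.44, adjusted p = 0.0074), while Idh1 fell (−0.74, adjusted p = 0.00071). All 5 fell under 4OHT in the Dux set (−0.52, adjusted p = 0.0019 for Me1; −0.53, adjusted p = 8.2e-05 for Pgd; −1.01, adjusted p = 2.6e-06 for Idh2; −0.54, adjusted p = 0.00020 for G6pdx; −0.59, adjusted p = 0.00017 for Idh1). The difference between the effects passed below 0 for 8 of the 18 tested genes of this list, beside 8.42% of all entries, and above 0 for none. The 3 largest called differences at a mean of at least 1 CPM were −1.53 for Me1 (adjusted p = 0.00062), −1.50 for Pgd (adjusted p = 2.6e-05) and −1.86 for Idh2 (adjusted p = 9.0e-06). The values of G6pdx and Idh1 in this test are not reported here.

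Elongation and desaturation genes outside the 10 were mixed. Of 19 tested in the first set 10 were lower and 4 higher under 4OHT, of 20 in the Dux set 9 lower and 3 higher, and of 20 in the Mettl3 set 7 lower and 3 higher. Tecr, which makes the last step of each elongation round, fell by 1.09 in the first set (adjusted p = 4.7e-08) and by 1.53 in Mettl3 KO (adjusted p = 2.2e-05). Hacd2, the dehydratase of the step before, rose by 1.45 in the first set (adjusted p = 1.7e-09) and by 1.36 in the Dux set (adjusted p = 4.7e-06). Elovl5, an elongase of polyunsaturated chains, fell by 0.76, 0.71 and 0.60 in the first, Dux and Mettl3 sets. Elovl5 was named after its values were seen, as were Slc25a1, G6pdx and Idh1, and Scap, Me1 and Pgd in the sets where they were not among the 3 largest changes of their lists.

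The remaining 4 lists held both lower and higher genes in the first set. Among acyl-CoA synthetases and uptake genes 7 of 13 were lower and 3 higher in the first set, 6 and 3 of 14 in the Dux set, and 2 and 1 of 13 in the Mettl3 set. Acsl3, an acyl-CoA synthetase, was at 20.4 ± 2.5 CPM under 4OHT and 71.1 ± 6.0 CPM under DMSO in the first set (SD, n = 4 each) and fell by 1.78 there and by 2.02 in the Dux set, and the fatty acid carrier Fabp5 fell by 1.20, 0.97 and 1.69 in the first, Dux and Mettl3 sets. Among fatty acid oxidation genes 14 of 25 were lower and 6 higher in the first set, 11 and 4 of 25 in the Dux set, and 4 and 5 of 24 in the Mettl3 set, and Cpt1c, a brain-type member of the carnitine palmitoyltransferase family, rose by 1.01 in the first set and by 1.30 in the Dux set. Among glycerolipid and lipid storage genes 6 of 22 were lower and 6 higher in the first set, 6 and 3 of 23 in the Dux set, and 7 and 3 of 22 in the Mettl3 set, and the lipid droplet coat gene Plin2 rose by 1.10 in the first set and by 0.56 in Mettl3 KO and did not pass in the Dux set (0.26, adjusted p = 0.18). Among mitochondrial fatty acid synthesis genes 2 of 9 were lower and 1 higher in the first set, 2 and 0 of 9 in the Dux set, and 2 and 3 of 9 in the Mettl3 set.

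**Figure D5:**
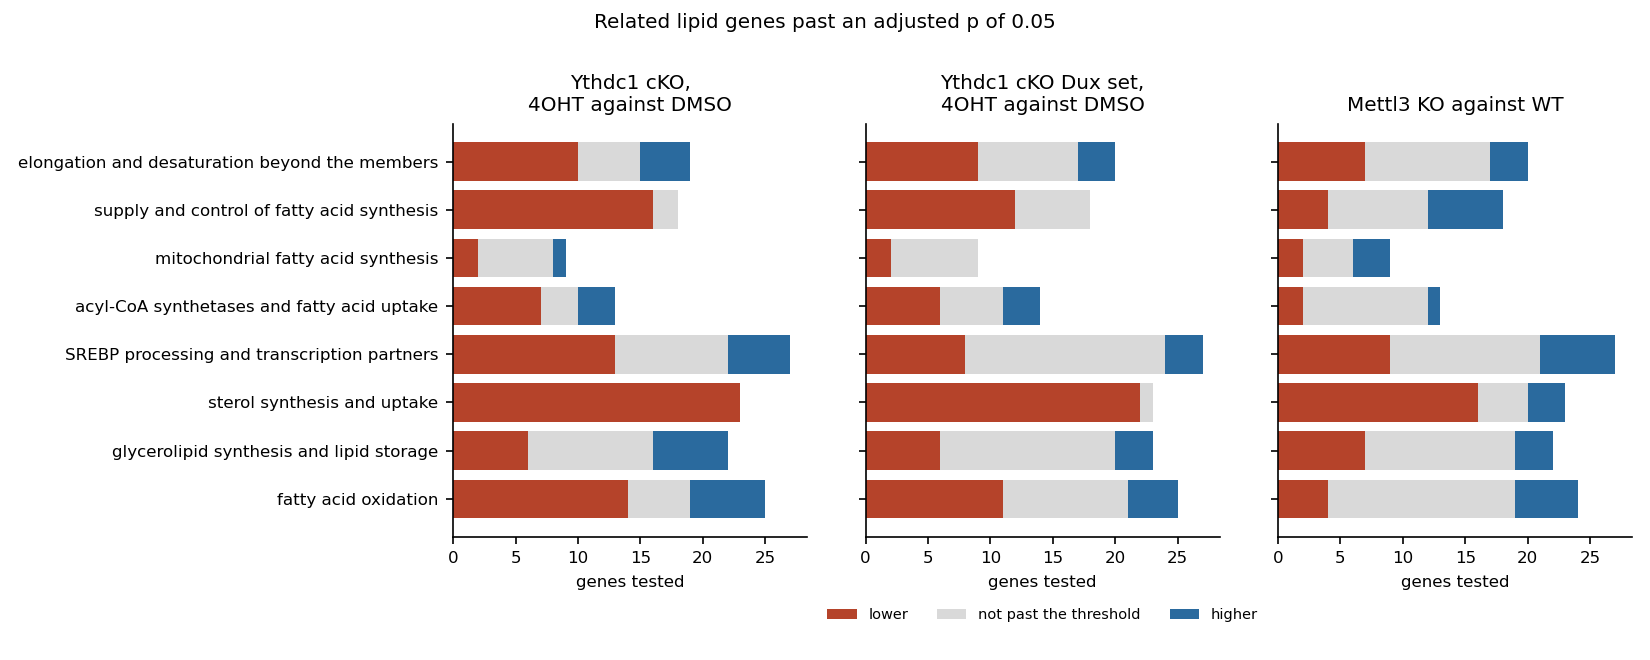
Number of tested genes (x axis) of each of 8 lipid gene lists that were lower (red), higher (blue) or not past an adjusted p of 0.05 (grey) in the Ythdc1 cKO set, the Dux set pooled over genotypes and the Mettl3 set. The sterol list is red in full in the first panel (23 of 23) and nearly so in the second (22 of 23), while the supply list has no blue under 4OHT and 6 blue genes in the Mettl3 panel.

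Lpl, the lipoprotein lipase on the adipocyte marker list, carried nearly all of that list's summed level, which was 1.74 to 4.04 CPM under 4OHT and 10.4 to 13.85 CPM under DMSO in the first set. Lpl was at 1.62 to 3.695 CPM under 4OHT and 10.2 to 13.7 CPM under DMSO there, and at 4.49 and 8.74 CPM in Mettl3 KO and 17.6 to 18.7 CPM in WT libraries. Primitive endoderm markers summed to 35.1 to 46.4 CPM under 4OHT and 27.9 to 39.3 CPM under DMSO in the first set, with 5 of 7 higher, beside 23.7% of all entries. In the Dux set 3 of 7 were higher, beside 20.2% of all entries, and in the Mettl3 set 1 of 6 tested, beside 16.4%. Their part in the results was not tested.

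The pattern of each stearoyl-CoA desaturase over the 22 libraries was set beside that of 18825 entries, as Pearson correlations of log2 CPM centred within each set, a description in which the points share their libraries and treatments. The entries most like Scd1 were Dhcr7 (0.985) and Insig1 (0.984) of the sterol pathway, the citrate carrier Slc25a1 (0.984), the lipoprotein receptor Lrp8 (0.983) and Mir5114 (0.982). Among those most like Scd2 were Mir5114 (0.997), the transketolase gene Tkt (0.996), Acsl3 (0.993) and the traffic GTPase gene Rab6b (0.987). Mir5114 spans 61 bases inside a Scd2 exon on the same strand, so its counts cannot be told apart from those of Scd2. Among the 10 genes, Scd1 and Scd2 had a correlation of 0.987 and Scd1 and Fads1 of 0.985, and the lowest was that of Elovl6 with Fads2 (0.621).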

How the data were processed

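Total RNA cleared of ribosomal RNA with RNase H was sequenced as 150-base read pairs, per the labels. Named in the submitters' processing notes are STAR 2.7, RSEM, Bowtie2, bcl2fastq and mm10; the sources used here do not give the counting tool, the use of strand or the treatment of multi-mapping reads. The authors deposited whole-number counts, unscaled, for 44749 entries (43672 genes and 1077 repeat families) in 22 libraries. A deposited normalized table was not used here. Columns were matched to titles, since the genotype and treatment fields of the Dux set are shifted by 1 sample against them.

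The 10 genes, the 8 gene lists and the tests were chosen with earlier results of these data known. Counts were tested with edgeR 4.0.16 in R 4.3.3 (filterByExpr, TMM, glmQLFit, glmQLFTest; Benjamini-Hochberg over every entry, threshold 0.05), for the Ythdc1, Dux and Mettl3 sets apart, and the script was tested on simulated data. Alternatives were DESeq2 1.42.0, RLE factors, no filter, genes alone, a replicate block and each library left out. The SE is the log2 fold change over the root of F. CPM carry 1 TMM scaling over all 22 libraries, and lengths are exon unions of GENCODE vM21. Named were the 10 genes, the 3 largest called changes of each list with a mean of at least 1 CPM, the targeted genes and the 5 entries most like Scd1 and Scd2; some genes that this rule names are not reported here. Within groups, chi-square between library pairs was 3.74 to 99.1 per degree of freedom, above counting error. In the Ythdc1 set same-numbered libraries deviated from their group means together (correlations 0.331, 0.13, 0.359 and 0.34 over 10172 entries), so by the data the numbers pair them.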

Additional observations from a re-analysis of the deposited data

Results flagged for a closer look

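DMSO library 1 of the Ythdc1 cKO set lay apart from the other 3 libraries of its group for 2 genes of the 10: Scd1 at 100.7 CPM, with the others at 160.6 to 168.6 CPM, and Fads2 at 76.79 CPM, with the others at 95.55 to 98.32 CPM. In both cases the gap to the nearest library, over the range of the group, passed Dixon's 95% critical value for 4 libraries. Of 20 groups tested these 2 passed, and chance passes about 1 in 20. Both came from the same library, so they are not independent of each other. Over the whole table, chi-square between DMSO library 1 and the others of its group was 30.97 to 37.05 per degree of freedom. Between those others it was 8.44 to 10.82. Without this library the log2 fold change under 4OHT was −4.53 for Scd1 and −2.56 for Fads2, beside −4.38 and −2.48 with it.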

How the results depend on the processing

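The fall of all 10 genes in the pooled Dux set kept its count of 10 under DESeq2, RLE factors, no filter, genes alone, the replicate block and each library left out, and was 9 as the mean of the Dux-KO and Dux-Het effects. Over the libraries left out, the number of the 10 genes that passed was 3 to 8 in Dux-KO cells, 5 to 8 in Dux-Het cells, 0 to 7 for Mettl3 KO and 4 to 7 for the Dux set effect minus the Mettl3 effect, and it was 0 to 0 for the difference between the Dux genotypes and for Dux-KO against Dux-Het under 4OHT or DMSO. Entries called in the Ythdc1 set were 9910 to 10931, beside 11008, and the median of the 10 genes there was −1.20 to −1.11. With the replicate block 11904 entries passed in the Ythdc1 set. Of the 10 genes, 10 passed with it in the pooled Dux set, beside 12654 of 29322 entries tested. It was 9 in Dux-KO cells, beside 6801 of 29322 entries, and 8 in Dux-Het cells, beside 6098. For Mettl3 KO it was 5, beside 7608 of 23977 entries. The count was 7 for the Dux minus Mettl3 difference, beside 6945 of 30612 entries, and 0 for the difference between genotypes, beside 5 of 29322. The main fits leave the numbers out. By the data the numbers pair the libraries in the Ythdc1 set, and the block changed no call reported for it. In the Dux and Mettl3 sets same-numbered libraries also deviated together (correlations 0.545 in Dux-Het, 0.243 in Dux-KO, 0.0766 in Mettl3). With 2 libraries a group, the other numbering gives the same size with the opposite sign (−0.545 in Dux-Het), so pairing was not decided there. The block moved entries called from 2890 to 6801 in Dux-KO and from 2738 to 6098 in Dux-Het cells. Outside the comparisons of Dux genotypes the sign changed for Acaca in the Mettl3 set, which passed in no fit (0.02 with all libraries; −0.0464 to 0.07178 with 1 library left out). Single genes that moved across the threshold in other fits were Acss2 in the pooled Dux set, Fads1 and Srebf1 for Mettl3 KO, Srebf1 in Dux-Het cells and Elovl6 and Fads2 in Dux-KO cells; the cause was not tested. In the comparisons of Dux genotypes, where no gene of the 10 passed in any fit, the sign changed in 22 of 150 values for the difference between effects, 10 of 140 under 4OHT and 9 of 140 under DMSO. Of 870 values of single genes in the other comparisons 812 kept direction and side of the threshold, 45 lost the call, 11 gained it and 2 changed sign. The 870 include values of the 10 genes in the Ythdc1 set, the comparison that chose them, and nothing is read from those. RLE factors, DESeq2 and genes alone moved the median of all entries by no more than 0.039 on the log2 scale. Without the filter on low counts, which changes the entries tested, it moved by up to 0.07.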
